A study of Caenorhabditis elegans with 12 samples.

Results

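10 genes of the epithelial cell junction were followed in whole Caenorhabditis elegans worms: dlg-1, ajm-1, let-413, hmr-1, hmp-1, hmp-2, jac-1, sma-1, sax-7 and vab-9. They were taken by gene name from a table of 21982 genes, and 10 of 10 names were found. The worms were of strain KH2235, which carries a splicing reporter made from a ret-1 mini gene, and were divided on day 6 by their fluorescence. The Green group was mostly GFP and the Red group mostly mCherry, and both groups carry the same reporter and come from the same strain and day. There were 6 libraries a group, paired as 1 Green and 1 Red in every one of 6 labelled batches. The labels name neither the reporter's promoter nor separate cultures, so p-values here measure library-to-library spread, which may be technical.

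Worm epithelia, the skin, gut, pharynx, vulva and spermatheca among them, are sealed by a single belt-like apical junction. Its upper part holds the cadherin-catenin complex, in which the classical cadherin HMR-1 binds the beta-catenin HMP-2, which binds the alpha-catenin HMP-1, the link to actin; JAC-1 is the p120-catenin that also binds the cadherin tail. Just below lies the complex of DLG-1, a Discs large scaffold, and AJM-1, a coiled-coil protein, and the Scribble relative LET-413 is needed to gather both into a tight belt. SMA-1 is the heavy beta-spectrin under the apical membrane, SAX-7 is an L1-type adhesion molecule that acts in part redundantly with HMR-1, and VAB-9 is a claudin-like membrane protein whose place at the junction depends on the cadherin. hmr-1 and sax-7 are also used in neurons, and the cadherin-catenin genes are supplied by the mother to the early embryo, so a whole-worm level mixes several sources.

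Values are normalized counts, which, as the values show, are gene counts that the authors divided by 1 factor per library. Differences are on the log2(normalized count + 1) scale, Green over Red, from limma fitted across 14618 genes with a mean of at least 10, and a gene was called at a Benjamini-Hochberg adjusted p under 0.05. All 10 genes passed the filter on low values. Library totals recovered from the table ran from 30185155 to 87141961 reads, and the lowest read count of a junction gene was 158, for vab-9, where counting error alone is 7.96%; the other 9 genes had at least 1420 reads in every library. The first principal component, with 45.3% of the variance, separated Green from Red, while Red replicate 6 lay by itself on the next component (19.1%). When libraries were centred on their median gene, the median log2 fold over all genes became 0.16, against 0.04 before, with 4163 higher and 2337 lower calls in place of 2781 and 2938. The label gives the tissue as the whole body, and the summed markers of epidermis, intestine, pharynx, muscle, neurons and germline were above 0 in all 12 libraries.

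dlg-1 and ajm-1 were lower in Green by 1.10 and 0.84 on the log2 scale, the largest differences among the 10 genes, and the apical spectrin gene sma-1 and the Scribble gene let-413 were lower by 0.38 and 0.19. Of the 4 cadherin-catenin genes, hmp-2 was narrowly higher in Green and hmr-1, hmp-1 and jac-1 did not pass the test. In all, 4 of 10 genes were called lower and 1 higher in Green, beside 20.1% of all tested genes called lower and 19% called higher. edgeR and DESeq2 each called 4 of the 10 lower and 0 higher, with backgrounds of 22.2% lower and 16.2% higher in edgeR and of 22.7% and 18.4% in DESeq2; at an unadjusted p under 0.05, 1 was higher in edgeR and 2 in DESeq2. Median centring gave 3 lower and 2 higher (16% and 28.5% of all genes), and blocking on batch gave 4 lower and 1 higher (22.6% and 23.2%). The median log2 fold of the 10 genes was -0.13, beside 0.04 for all tested genes; it was -0.0046 beside 0.16 after median centring and -0.18 beside 0.04 with quantile normalization. RNA of whole worms cannot tell apart fewer cells of a type from less RNA per cell, for these and for all values below. The summed markers of embryos ran from 9184 to 10015 normalized counts in Green and from 10174.5 to 12131 in Red. Their genes went both ways, but more were lower. Of 13 tested, 7 were called lower and 3 higher in Green, with a median log2 fold of -0.68. ceh-32, a homeobox gene of the embryonic head, averaged 933 ± 224 in Green worms and 3109 ± 697 in Red worms (SD, n = 6 each). By contrast pal-1, the Caudal gene, averaged 6791 ± 487 in Green worms, against 5282 ± 588 in Red worms (SD, n = 6 each). It had the highest mean of the embryonic markers in each group, and it was chosen after its values were seen. The part of embryos in these results was not tested.

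**Figure D1:**
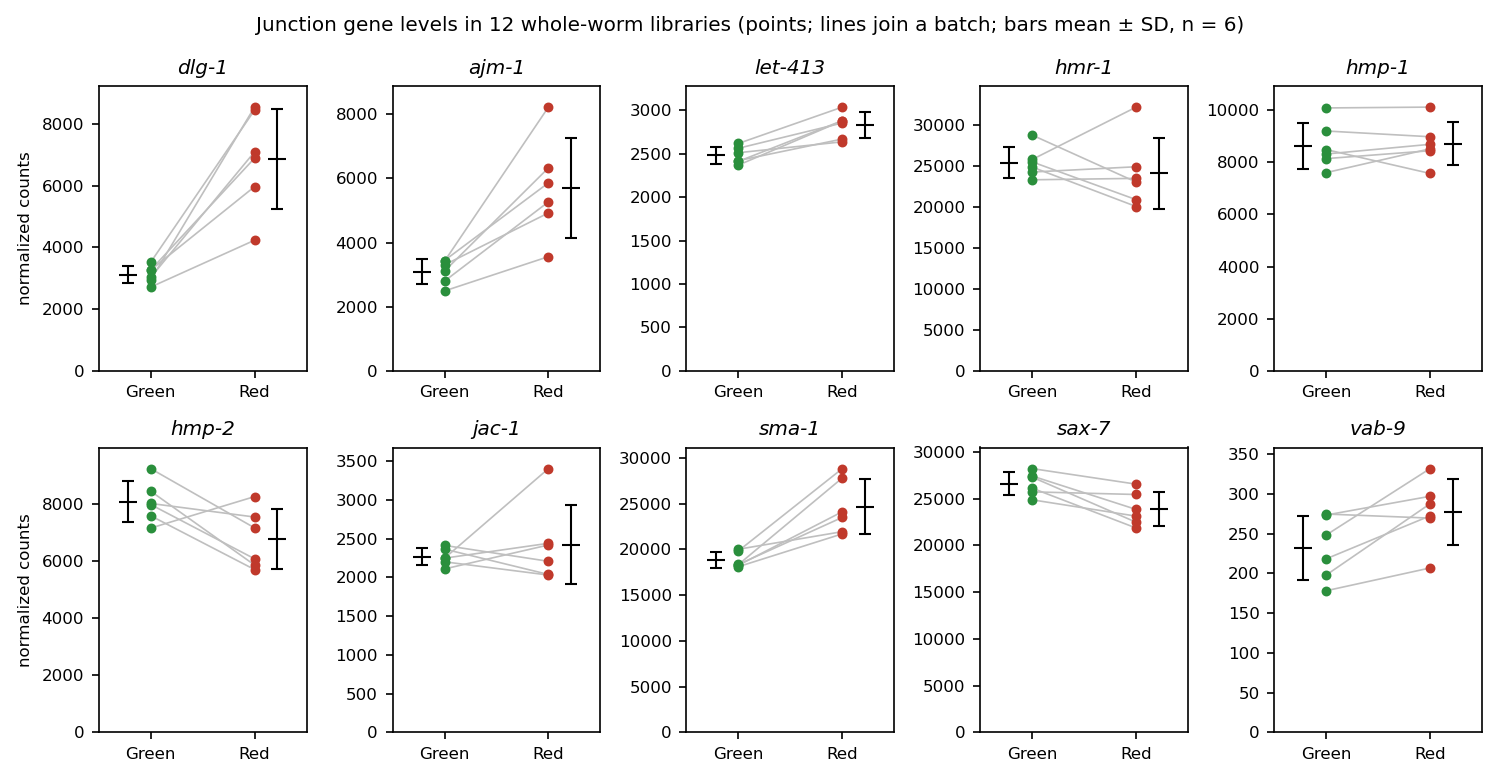
Normalized counts (vertical axis, from 0) of the 10 junction genes in the Green and Red libraries; points are libraries, grey lines join the libraries of a batch, and bars give the mean ± SD (n = 6). For dlg-1 the Green libraries lie between 2715 and 3519 and the Red libraries between 4235 and 8549, while the Green and Red points of hmp-1 cover nearly the same range.

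dlg-1 (X, 5479700 to 5484941, plus strand, WBcel235) encodes the scaffold that holds the lower complex together. It had a lowest value of 2715, a median of 3147 and a highest value of 3519 normalized counts in Green worms, against 4235, 6997 and 8549 in Red worms. The groups did not overlap, and the lowest Red library was replicate 3 while replicates 2 and 6 were the highest. Green worms averaged 3124 ± 284 and Red worms 6867 ± 1620.4 (SD, n = 6 each), so that the Green mean was 45.5% of the Red mean. The log2 fold was -1.10 with a standard error of 0.14 and a 95% interval from -1.41 to -0.79 (limma adjusted p = 9.31e-05). Of the 14618 tested genes, 1190 had a log2 fold this low or lower. The batch differences ran from -1.54 in batch 2 to -0.64 in batch 3 and were below 0 in 6 of 6 batches; 20.2% of all tested genes were lower in Green in every batch.

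ajm-1 (X, 9082946 to 9113619, plus strand) encodes the junctional protein that binds DLG-1 and is the usual antibody marker of these junctions. In order of lowest, median and highest library, it had 2492, 3208 and 3441 normalized counts in Green, against 3561, 5565 and 8222 in Red. The groups did not overlap, but the gap was narrow, since Red replicate 3 lay just above the highest Green library. Green worms averaged 3094 ± 379.6 and Red worms 5694 ± 1558 (SD, n = 6 each), and the Green mean was 54.3% of the Red mean. The log2 fold was -0.84 with a standard error of 0.16 (95% interval -1.18 to -0.51, limma adjusted p = 0.0012). Red replicate 6 was the highest library of all for ajm-1, and without it the log2 fold was -0.73 (limma adjusted p = 0.00073). The gene has 16 annotated transcripts, and the table gives 1 value for the gene.

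sma-1 (V, 11899449 to 11916623, plus strand) encodes the heavy spectrin that lines the apical membrane and that embryos need to lengthen normally. The lowest, median and highest libraries held 18119.9, 18356 and 20027 normalized counts in Green, against 21709.5, 23820.3 and 28845 in Red, again with no overlap. The Green libraries were tightly grouped, with 18829 ± 863, and the Red ones spread more widely, with 24661 ± 3005 (SD, n = 6 each). The log2 fold was -0.38 with a standard error of 0.08 (95% interval -0.56 to -0.21, limma adjusted p = 0.0028). The smallest batch difference was -0.13, in batch 5, and all 6 were below 0.

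let-413 (V, 7973078 to 7977776, minus strand) encodes the basolateral protein that keeps the junction from spreading along the side of the cell. Its lowest, median and highest values were 2368, 2466 and 2617 normalized counts in Green, against 2636, 2866 and 3036 in Red. The groups did not overlap, though they nearly touched, with Red replicate 6 the lowest Red library. The difference was small: Green worms averaged 2482 ± 97.3 and Red worms 2825 ± 149 (SD, n = 6 each), and the log2 fold was -0.19 with a standard error of 0.06 (95% interval -0.32 to -0.05, limma adjusted p = 0.032). Centring on the median gene moved it to -0.06 (limma adjusted p = 0.57), and the call was also lost without any 1 of Green replicates 1, 2, 4 and 6 or Red replicates 1, 2 and 5 (limma adjusted p from 0.053 to 0.076).

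These 4 genes were the ones whose Green and Red libraries did not overlap. Among all tested genes, 9.71% lay wholly lower in Green in this way and 7.06% wholly higher. The Green libraries spread less than the Red ones for dlg-1, with a coefficient of variation of 9.10% in Green against 23.6% in Red. For ajm-1 it was 12.3% in Green against 27.4% in Red. A smaller Green spread was not particular to the pair: it was also seen for let-413, hmr-1, hmp-2, jac-1, sma-1 and sax-7, but not for hmp-1 and vab-9. jac-1 had 4.87% in Green against 21.1% in Red, but much of that Red spread was Red replicate 6. Without Red replicate 6 the Red libraries averaged 2226 ± 198 for jac-1, 6550 ± 1590 for dlg-1 and 5189 ± 1058 for ajm-1 (SD). The contrast was not tested. Red replicate 3 was the lowest Red library for dlg-1, ajm-1 and sma-1 alike.

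hmr-1 (I, 11075755 to 11134667, minus strand) encodes the classical cadherin, from which the rest of the adhesion complex hangs. In order of lowest, median and highest library, it had 23320.1, 25183 and 28770 normalized counts in Green, against 20059.6, 23268 and 32188 in Red. The groups overlapped, and Red replicate 6 lay above every other library. Green worms averaged 25420.4 ± 1866 and Red worms 24098 ± 4339.6 (SD, n = 6 each), with a log2 fold of 0.09 and a 95% interval from -0.13 to 0.31 (limma adjusted p = 0.50). Batches 3, 4 and 5 were higher in Green and batches 1, 2 and 6 lower. Without Red replicate 6 the log2 fold was 0.18 and passed (limma adjusted p = 0.044), and with quantile normalization it was -0.06.

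hmp-2 (I, 14738882 to 14742671, plus strand) encodes the beta-catenin that works in adhesion. The lowest, median and highest libraries held 7168, 8015 and 9256 normalized counts in Green, against 5715, 6635 and 8274 in Red. The groups overlapped: Green replicates 1, 2, 5 and 6 fell within the Red range, and Red replicates 1, 3 and 6 within the Green range. Green worms averaged 8087 ± 721 and Red worms 6782 ± 1042 (SD, n = 6 each), and the log2 fold was 0.26 with a standard error of 0.10 (95% interval 0.05 to 0.48, limma adjusted p = 0.049). Green was higher in 5 of 6 batches, and in batch 6 the log2 difference was -0.21. The call sat at the threshold: dropping Green replicate 1, 2, 3, 4 or 5, or Red replicate 2, 4 or 5, ended it (limma adjusted p from 0.060 to 0.115), and edgeR's quasi-likelihood test gave 0.22 (adjusted p = 0.053). It was also lost without the filter on low values, with DESeq2 and with quantile normalization (adjusted p = 0.062, 0.061 and 0.27). Without Red replicate 6 it was 0.32 (limma adjusted p = 0.0069).

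hmp-1 (V, 11845871 to 11852166, plus strand) encodes the alpha-catenin that ties the complex to actin filaments. Its lowest, median and highest values were 7598, 8398 and 10078 normalized counts in Green, against 7568, 8598 and 10110.3 in Red, so that the groups covered the same range. Green worms averaged 8634 ± 877 and Red worms 8715 ± 830.5 (SD, n = 6 each), with a log2 fold of -0.01 and a 95% interval from -0.19 to 0.17 (limma adjusted p = 0.91). A difference of the size seen for dlg-1 or ajm-1 lies outside that interval. Its sign turned with median centring (0.11).

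jac-1 (IV, 15997835 to 16026847, minus strand) encodes the p120-catenin, which in the worm modulates adhesion without being essential for it. In order of lowest, median and highest library, it had 2108, 2246 and 2412 normalized counts in Green, against 2029, 2312 and 3402 in Red. The groups overlapped, with Red replicate 6 far above the others and the next Red library at 2439. Green worms averaged 2263 ± 110.2 and Red worms 2422 ± 512 (SD, n = 6 each), with a log2 fold of -0.08 and an interval (95%) of -0.31 to 0.16 (limma adjusted p = 0.61). Without Red replicate 6 it was 0.03. The same library held the top Red value of hmr-1, hmp-1 and hmp-2 too.

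**Figure D2:**
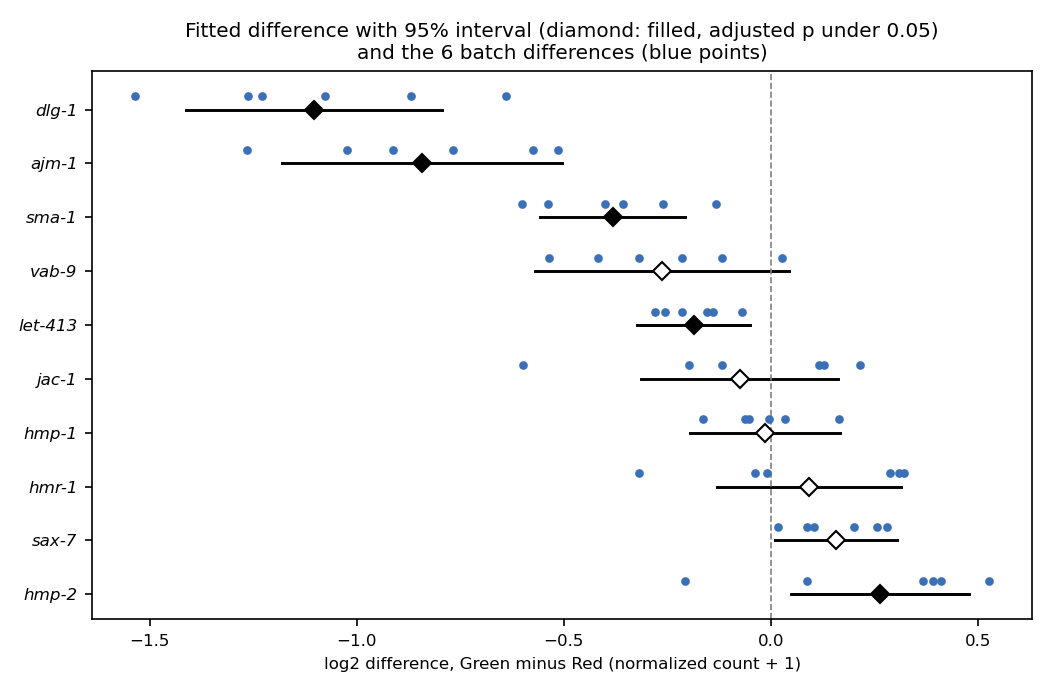
Log2 difference between Green and Red (horizontal axis) for each junction gene, ordered from the lowest at the top; diamonds give the limma estimate with its 95% interval, filled where the adjusted p was under 0.05, and blue points give the 6 batch differences. All batch points of dlg-1, ajm-1, sma-1 and let-413 lie below 0, those of sax-7 lie above 0, and those of hmr-1, hmp-1 and jac-1 fall on both sides.

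sax-7 (IV, 8062659 to 8084087, plus strand) encodes the L1-type molecule that maintains contacts between neurons and also lies at epithelial borders. The lowest, median and highest libraries held 24863, 26694 and 28200.3 normalized counts in Green, against 21848, 23477 and 26538 in Red. The groups overlapped, yet Green was higher in 6 of 6 batches, by 0.02 to 0.28, as were 21.1% of all tested genes. Green worms averaged 26595 ± 1243 and Red worms 23873 ± 1799 (SD, n = 6 each), and the log2 fold of 0.16 did not pass (95% interval 0.01 to 0.31, limma adjusted p = 0.082). It passed after median centring, at 0.28 (limma adjusted p = 0.032), and without Red replicate 3, at 0.19 (limma adjusted p = 0.038), and was 0.00 with quantile normalization. Exons of nsy-7 on the other strand cover 2.06% of the exon length of sax-7, and the labels do not say whether counting used strand.

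vab-9 (II, 8636233 to 8637715, minus strand) encodes the claudin-like protein and was the lowest of the 10 genes. Its lowest, median and highest values were 178, 233 and 275 normalized counts in Green, against 207, 280.0 and 332 in Red. The groups overlapped, and Green replicate 6 and Red replicate 6 were the lowest libraries of their groups. Green worms averaged 232 ± 40.1 and Red worms 278 ± 41.3 (SD, n = 6 each), with a log2 fold of -0.26 and a 95% interval from -0.57 to 0.04 (limma adjusted p = 0.15). Without Red replicate 6 it was -0.34 and passed (limma adjusted p = 0.034).

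Without Red replicate 6, 5 of the 10 genes were called lower and 2 higher in Green, beside 25.5% and 29.3% of all tested genes. Without both libraries of batch 6 the counts were 4 lower and 1 higher, beside 23.7% and 27.2%, and hmr-1 and vab-9 did not pass (limma adjusted p = 0.072 and 0.070). Across the 60 differences of 1 gene in 1 batch, Green was lower in 40, or 66.7%, beside 48.0% over all tested genes. The count was 31 after median centring (51.7% beside 40.2%) and 48 with quantile normalization (80% beside 47.1%). By batch, 8 of 10 genes were lower in Green in batches 1 and 2, 4 in batch 3, 5 in batch 4, 6 in batch 5 and 9 in batch 6.

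Ratios of 2 junction genes within a library do not depend on how libraries were scaled. They were chosen after the values were seen and are given with no test. The dlg-1 to hmp-1 ratio had a median of 0.363 (0.295 to 0.430) in Green and 0.839 (0.472 to 0.984) in Red, with no overlap. The ajm-1 to hmp-1 ratio had a median of 0.359 (0.271 to 0.435) in Green and 0.677 (0.397 to 0.813) in Red, with overlap. The dlg-1 to hmr-1 ratio had a median of 0.127 (0.0944 to 0.136) in Green and 0.296 (0.184 to 0.364) in Red, with no overlap. Inside the lower complex, the dlg-1 to ajm-1 ratio was 1.01 (0.947 to 1.09) in Green and 1.20 (1.03 to 1.35) in Red, so the groups overlapped. Inside the cadherin-catenin complex all 3 ratios to hmr-1 overlapped: hmp-1 at 0.330 (0.313 to 0.391) in Green and 0.366 (0.314 to 0.421) in Red, hmp-2 at 0.326 (0.278 to 0.343) in Green and 0.283 (0.257 to 0.311) in Red, and jac-1 at 0.0878 (0.0822 to 0.0964) in Green and 0.102 (0.0884 to 0.106) in Red.

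**Figure D3:**
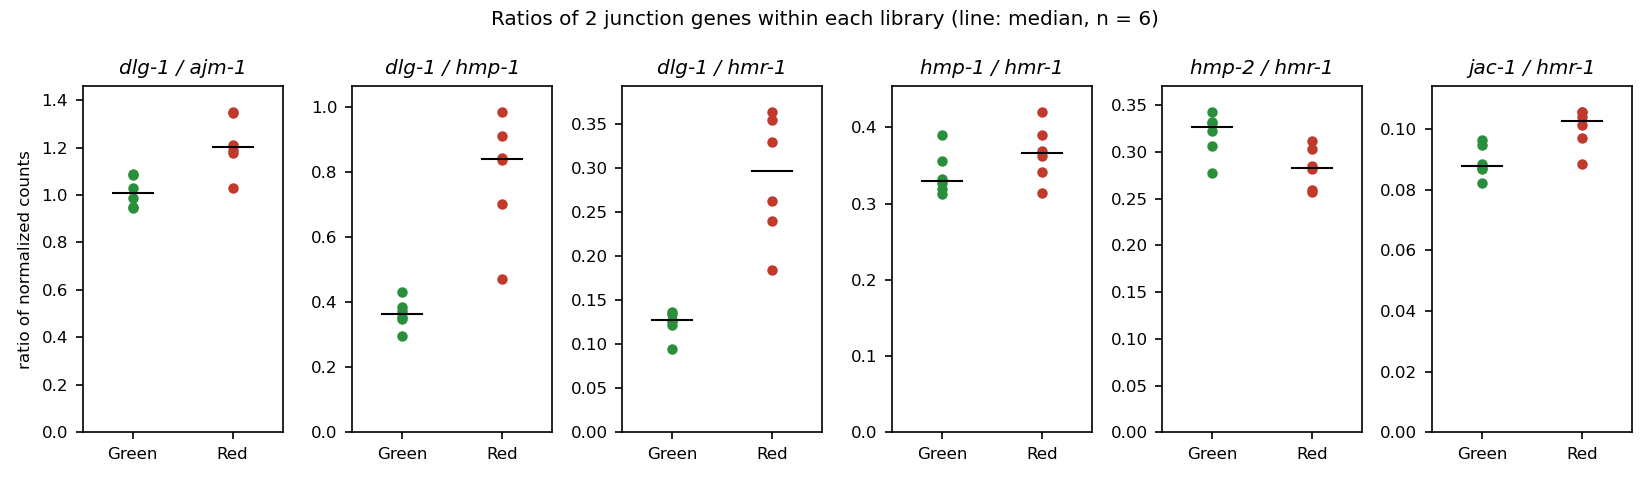
Ratio of the normalized counts of 2 junction genes within each library (vertical axes, from 0), with Green left and Red right; points are libraries and lines are medians (n = 6). The ratios of dlg-1 to hmp-1 and to hmr-1 separate the groups, with medians of 0.363 in Green and 0.839 in Red for dlg-1 to hmp-1, while the ratios among the cadherin-catenin genes overlap.

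Per length of annotated exons, the levels of the 10 genes spanned a wide range. In Green the order, in normalized counts per kb, was sax-7 at 4274 ± 199.7, hmp-2 at 3572 ± 319, hmr-1 at 2546 ± 187, hmp-1 at 1925 ± 196, sma-1 at 1438 ± 65.9, let-413 at 935 ± 36.7, dlg-1 at 826 ± 75.2, jac-1 at 544 ± 26.5, ajm-1 at 395 ± 48.4 and vab-9 at 248 ± 42.9 (SD, n = 6). Of these neighbours only sax-7 with hmp-2 and let-413 with dlg-1 had overlapping ranges. In Red dlg-1 stood above let-413, at 1817 ± 429 against 1065 ± 56.2, and ajm-1 above jac-1, at 726 ± 198.7 against 582 ± 123 (SD, n = 6), and all neighbours but jac-1 with vab-9 overlapped. Exon length sums all transcripts, so genes with long alternative exons can be set low.

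Over the 12 libraries the profiles of dlg-1 and ajm-1 lay closer to each other than to any other of the 10 genes. With each gene centred on its own mean log2 level, dlg-1 and ajm-1 differed from each other by a root mean square of 0.17, and sma-1 came next for both, at 0.43 from dlg-1 and 0.35 from ajm-1. hmr-1 was nearest to jac-1, at 0.12, and then to hmp-1 and hmp-2, both at 0.13. The greatest distance of all pairs was that of dlg-1 from hmp-2, at 0.76. Since the mean was taken over both groups together, these distances include the Green-Red differences given above. They are therefore not a result separate from those differences. Against the median profile of the 10 genes, the nearest of 11317 other genes with a mean of at least 50 were pkn-1, Y92H12A.5, ZC8.6, swan-2 and epc-1, at 0.04, 0.05, 0.05, 0.05 and 0.06. Their log2 folds lay between -0.13 and -0.09 and did not pass in limma, and after median centring they lay between 0.00 and 0.04. Of the 24 alternatives, pkn-1 was called lower in Green in 4 and Y92H12A.5 in 2. swan-2 and epc-1 were called lower in 1 each, and ZC8.6 in 0.

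The counts of the gene lists that follow stand beside 19% of all tested genes called higher and 20.1% called lower in limma. Of 13 other junction genes 12 were tested, of which 3 were higher, 2 lower and 7 did not pass (median -0.14). tes-1, which encodes a LIM protein that binds junctional actin, averaged 789 ± 57.9 normalized counts in Green worms, against 1277 ± 295 in Red worms (SD, n = 6 each), and its log2 difference was -0.67 (limma adjusted p = 0.0019). srgp-1, whose protein bends membrane at the junction, was higher by 0.36 (limma adjusted p = 0.0069) and clc-5, a claudin-like gene, lower by 0.52 (limma adjusted p = 0.0094); both calls were lost with quantile normalization. Of 10 polarity genes 3 were higher, 2 lower and 5 did not pass, with a median of 0.05 that was -0.10 under quantile normalization. After median centring 4 were higher and 1 lower, with a median of 0.18. crb-1, which encodes the apical protein Crumbs, averaged 525 ± 53.4 in Green worms, against 1589 ± 433 in Red worms (SD, n = 6 each), and its log2 difference was -1.55 (limma adjusted p = 3.9e-05). lgl-1, a basolateral partner of the Scribble group, was lower by 0.29 (limma adjusted p = 0.014), which was lost after median centring (-0.16, limma adjusted p = 0.13), and num-1, the Numb gene, was higher by 0.34 (limma adjusted p = 0.017).

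Of 14 genes of the apical cytoskeleton, where SMA-1 works, 8 were lower in Green, 0 higher and 6 did not pass in limma, with a median of -0.41, beside 20.1% of all tested genes lower and 19% higher. At an unadjusted p under 0.05, 1 gene was higher in limma, and edgeR and DESeq2 also called 0 higher. When batch was blocked 9 were lower and 1 higher (22.6% and 23.2% of all tested genes), and after median centring 7 were lower and 3 higher (16% and 28.5%). With quantile normalization 8 were lower and 1 higher (16.1% in each direction). Without Red replicate 4 the counts were 7 lower and 2 higher (16.9% and 14.4%), and without Red replicate 6 they were 8 and 1 (25.5% and 29.3%). The intestinal intermediate filament genes ifd-2 and ifp-1 differed by -1.36 and -1.43 on the log2 scale (limma adjusted p = 1.0e-04 and 0.00039), and nfm-1, a merlin relative, differed by -0.68 on the log2 scale (limma adjusted p = 0.00053). The other filament genes of the list did not pass in limma and went both ways. ifc-2 (0.40) and ifd-1 (0.44) lay above 0, and ifb-2 (-0.32) and ifc-1 (-0.39) below 0. spc-1, the alpha-spectrin that pairs with SMA-1, averaged 12574 ± 888 in Green worms, against 19333 ± 3301 in Red worms (SD, n = 6 each), and its log2 difference was -0.61 (limma adjusted p = 6.0e-04), and unc-44, the ankyrin that binds SAX-7, differed by -0.54 on the log2 scale (limma adjusted p = 0.0036); these 2 genes were chosen after their values were seen.

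Of 10 hemidesmosome genes, which anchor the skin to muscle and cuticle, 3 were higher, 2 lower and 5 did not pass; without Red replicate 6, 5 were higher, and the median of 0.02 was -0.10 under quantile normalization. mua-6 (an intermediate filament) and mup-4 (a transmembrane anchor) were higher by 1.15 and 0.85 (limma adjusted p = 0.0013 for both), and the filament gene ifa-3 was lower by 1.34 (limma adjusted p = 0.0081). Of 25 innexins, the gap junction proteins, 4 were higher, 6 lower and 15 did not pass, a share near that of all tested genes (39.1% called in either direction), or 8 and 4 after median centring; without Green replicate 3 or Red replicate 4, 3 were higher and 3 lower. inx-2, inx-3 and inx-5 were lower by 0.67, 0.55 and 0.72 (limma adjusted p = 0.00026, 4.0e-04 and 0.0047). Of 12 epithelial transcription factor genes 2 were higher, 5 lower and 5 did not pass, or 4 and 5 after median centring; without any 1 of Green replicates 3, 4, 5 and 6 or Red replicates 2, 4 and 5, 1 was higher. nhr-25, a nuclear receptor of skin development, elt-1, the GATA factor that specifies skin, and ceh-16, an engrailed gene of seam cells, differed by -1.72, -0.62 and -1.32 on the log2 scale (limma adjusted p = 5.2e-05, 0.0012 and 0.0013). The 2 called higher were nhr-23, by 0.49, and lin-26, by 0.25 (limma adjusted p = 0.0014 and 0.033).

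**Figure D4:**
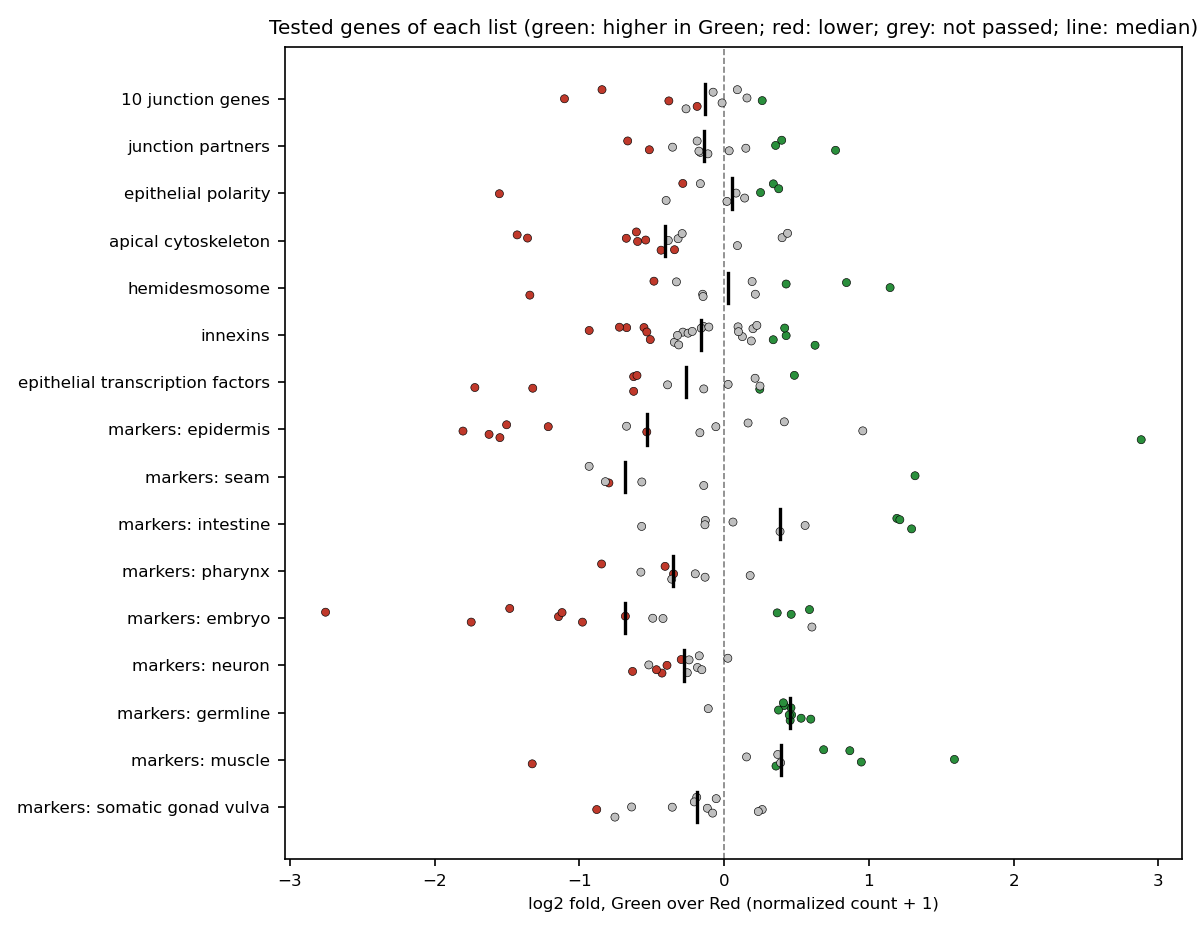
Log2 fold of Green over Red (horizontal axis) for the tested genes of each list, with the 10 junction genes at the top; green points were called higher, red points lower, grey points did not pass, and black lines are list medians. The apical cytoskeleton list has its median at -0.41, with calls in 1 direction, and the junction genes have theirs at -0.13.

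Markers of cell types that could carry these transcripts are given beside the same 19% higher and 20.1% lower of all tested genes. Of 20 markers of embryos 13 were tested, of which 3 were higher and 7 lower in Green (median -0.68). ceh-32 differed by -1.75 on the log2 scale (limma adjusted p = 3.9e-05). Of 13 markers of epidermis 1 was higher (col-19, an adult collagen, 2.88, limma adjusted p = 0.00056) and 6 lower, with sums from 1137 to 2801 in Green and 1296 to 3827 in Red. The 6 called lower were sqt-3, dpy-2, dpy-3, dpy-7, dpy-10 and che-14, with log2 differences from -1.80 (dpy-3) to -0.53 (dpy-10). The epidermis median was -0.53, but -0.95 without Green replicate 4, -1.02 for genes with a mean of at least 50 and -0.25 with quantile normalization. Of 9 pharynx markers, 8 of them tested, 0 were higher and 3 lower in limma (0 higher at an unadjusted p under 0.05, and 0 higher in edgeR and DESeq2), or 0 and 1 after median centring. With quantile normalization 1 pharynx marker was higher and 2 were lower, beside 16.1% of all tested genes in each direction. pha-4, the pharynx organ selector, differed by -0.85 on the log2 scale (limma adjusted p = 0.00042), and the pharynx sums ran from 6052 to 7406 in Green and 7124 to 9372 in Red. Of 7 seam markers 6 were tested, with 1 higher (grd-3, 1.32, limma adjusted p = 0.027, and edgeR adjusted p = 0.054) and 1 lower (bro-1, -0.80, limma adjusted p = 0.045), or 1 and 2 when batch was blocked, and sums from 153 to 239.7 in Green and 123 to 414 in Red. Of the 6 tested, 5 lay below 0, and the seam median was -0.68, or -0.20 with quantile normalization. Dropping Green replicate 2, 3, 4, 5 or 6, or Red replicate 1, 2 or 4, ended the lower seam call, and dropping Green replicate 3 or Red replicate 2 ended that of grd-3. Of 12 markers of the somatic gonad and vulva 11 were tested, with 0 higher and 1 lower in limma (1 higher at an unadjusted p under 0.05, and 0 in edgeR and DESeq2), or 1 and 2 when batch was blocked. Without Red replicate 3 the lower count was 3, and without Green replicate 4 or Red replicate 6 it was 2. lim-7, a gonadal sheath gene, differed by -0.88 on the log2 scale (limma adjusted p = 0.0015). The sums of this list ran from 43385 to 50782 in Green and 30725 to 48317 in Red. fln-1 made up most of them, averaging 44723 for Green worms and 37659 for Red worms. Its log2 fold of 0.26 did not pass (limma adjusted p = 0.057). Of the 11 tested, 9 lay below 0, and the list median was -0.19, or 0.04 with quantile normalization.

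The remaining marker lists held the germline, intestine, muscle and neurons. Of 10 germline markers 9 were higher in Green and 0 lower in limma (0 lower at an unadjusted p under 0.05, and 0 in edgeR and DESeq2), with him-3 higher by 0.46 (limma adjusted p = 0.0022). Without any 1 of Green replicates 3 and 6 or Red replicates 2, 4 and 5, 5 germline markers were higher. With quantile normalization 8 were higher and 1 lower, beside 16.1% of all tested genes in each direction. The germline sums ran from 343760 to 411218 in Green and 207228 to 393443 in Red. Of 9 intestine markers 3 were higher and 0 lower in limma (1 lower at an unadjusted p under 0.05, 0 in edgeR and 1 in DESeq2), or 5 and 1 when batch was blocked; 1 was lower without Green replicate 5, Red replicate 1 or Red replicate 6. ges-1, a gut esterase, was higher by 1.30 (limma adjusted p = 7.4e-05), and the sums ran from 50451 to 89045 in Green and 26016 to 53824 in Red. Most of these sums was cpr-1, with means of 40103 in Green and 17528 in Red, and asp-1, with 23011 and 15974. The intestine median was 0.39, and 3 of the 9 lay below 0 without passing in limma: elt-2 (-0.13), elt-7 (-0.13) and pgp-1 (-0.57). Of 9 muscle markers 5 were higher and 1 lower, with unc-27, a troponin I, higher by 1.59 (limma adjusted p = 0.00095), and sums from 34182 to 56802 in Green and 22908 to 39964.5 in Red; without Red replicate 2, 3 were higher. Of 12 neuronal markers 0 were higher and 5 lower in limma (0 higher at an unadjusted p under 0.05, and 0 in edgeR and DESeq2), or 0 and 3 after median centring. unc-64, the syntaxin gene, differed by -0.63 on the log2 scale (limma adjusted p = 0.0013), and the neuronal sums ran from 16960 to 18870 in Green and 18510 to 22768 in Red. Of the listed markers 0 were at 0 in all 12 libraries, and 7 embryonic markers were under the minimum mean. The part of these cell types in the differences of dlg-1, ajm-1 and sma-1 was not tested.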

How the data were processed

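RNA of whole worms was sequenced in 12 libraries, 6 Green and 6 Red, from stranded mRNA libraries, per the labels' protocols. The deposited table holds normalized counts, a signal unit in which, as the values show, the authors divided gene counts by 1 factor per library. FastQC 0.11.8, STAR, MultiQC, Salmon 0.14.2, DESeq2 and build WBcel235 are named in the submitters' processing notes; their settings, and how strand was counted, are not stated there. In every library 100% of values were whole multiples of that library's step (tolerance 0.001 reads), which gave totals from 30185155 to 87141961 reads; PCR reads are not independent molecules, so counting errors cover counting only.

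Genes with a mean of at least 10 (14618 of 21982) were tested with limma 3.58.1 (trend) in R 4.3.3 on log2(normalized count + 1), which understates changes of low genes, with Benjamini-Hochberg adjustment over all tested genes. edgeR 4.0.16 (quasi-likelihood) and DESeq2 1.42.0 were run on the recovered reads; edgeR called 2367 genes higher and 3242 lower in Green. limma and edgeR were tested on simulated data. Other alternatives were the pseudocount, the filter, quantile normalization, centring on the median gene, robust limma, the batch as a block, and leaving out each library or batch 6, in all 24 per result. Libraries with the same number share a labelled batch; their deviations correlated at 0.11 to 0.37 within batches, against a mean of -0.05 between batches. Members and lists were chosen with earlier results of these data known. All 10 junction genes and the 5 genes of most similar profile are named. Of each pathway list up to 3 genes with the smallest p are named, and of each marker list 1. spc-1, unc-44, pal-1, fln-1, bro-1, nhr-23 and lin-26 are named outside this rule, after their values were seen. So are ifb-2, ifc-1, ifc-2, ifd-1, the epidermis markers called lower, and cpr-1, asp-1, elt-2, elt-7 and pgp-1. Positions come from Ensembl 115 (WBcel235), and 21896 gene IDs matched it. No sequences are printed.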

Additional observations from a re-analysis of the deposited data

Results flagged for a closer look

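A library stood far from the other 5 of its group in 6 of 90 groups examined, by Dixon's 95% criterion for 6 samples; chance gives about 1 in 20. Among the junction genes this was jac-1 in Red replicate 6, with 3402 normalized counts against 2029 to 2439 in the other Red libraries. Among junction partners it was clc-5 in Red replicate 2, with 157 against 106 to 117. num-1 reached 9964 in Green replicate 3, against 8274 to 8880.2 in the other Green libraries, and spc-1 reached 14282 in Green replicate 4, against 11812 to 12691. mup-4 was low in Green replicate 5, with 1298 against 1880.2 to 2092, and him-3 was high in Green replicate 3, with 6268 against 5439.9 to 5704.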

How the results depend on the processing

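dlg-1, ajm-1 and sma-1 were called lower in Green under all 24 alternatives, with log2 folds from -1.25 to -0.98, from -0.997 to -0.717 and from -0.55 to -0.26. The count of junction genes called higher in Green was 1, 0 without the filter, with quantile normalization, with edgeR, with edgeR and the replicate block, and with DESeq2, and 2 with median centring; leaving out 1 library gave 0 to 2. At an unadjusted p under 0.05 the counts higher were 2 without the filter, 0 with quantile normalization, 1 with edgeR, 1 with edgeR and the block, and 2 with DESeq2. The count called lower was 4, with 3 to 5 when 1 library was left out. With the replicate block in limma, 1 junction gene was higher and 4 lower, and no junction gene's call changed. Over all genes the block called 3392 higher and 3309 lower, and leaving out Red replicate 6 called 4287 and 3722; over the fits that left out 1 library, 1977 to 4287 genes were called higher. Signs turned for hmr-1 with quantile normalization (-0.060), for hmp-1 with median centring (0.11) and without 1 library (-0.060 to 0.030), and for jac-1 with median centring (0.051), without batch 6 (0.029) and without 1 library (-0.12 to 0.027). With median centring they also turned for pkn-1 (0.00093), Y92H12A.5 (0.015), ZC8.6 (0.035), swan-2 (0.041) and epc-1 (0.038). Of 360 list counts under an alternative, 290 were within 1.5 times in both directions and 70 were not. The cause of these changes was not tested. vab-9 is limited by its depth, with at most 383 reads.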
